A study of Mus musculus with 4 samples.

Results

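Cholesterol homeostasis in whole mouse testis is described here through 29 genes: enzymes of cholesterol synthesis, the SREBP transcription factors with their regulators, and proteins that free, store or move cholesterol inside the cell. They were taken by name from the 49492 gene rows of the count table. All 29 were found, and all 29 passed the filter on low counts, which left 20855 genes for testing. RNA came from whole testes of male C57BL/6J mice, and the labels give LPS (lipopolysaccharide, from the outer membrane of Gram-negative bacteria) as the treatment of all 4 samples. In 2 of them Spry1 was knocked down with a short hairpin (shSpry1), and the other 2 carried a control hairpin (shControl, genotype WT). The labels used here give no age, no vector or promoter for the hairpins and no cell type that received them. Nothing states that replicates are separate animals, so every p-value measures the spread among these libraries only, and that spread may be technical.

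The count columns are headed LPS or NC with a replicate number. The knockdown was taken to be LPS and the control hairpin NC, which is a reading of the headings. If they stand for LPS against no LPS, each difference given here belongs to that contrast instead. The groups are therefore called the LPS and NC columns, values are listed in the order LPS replicates 1 and 2 against NC replicates 1 and 2, and a negative log2 fold change means a lower level in the LPS columns. Library totals ran from 17612342 to 22451132 counts, so that 0 counts would allow up to 0.136 to 0.168 CPM (counts scaled to the TMM-adjusted library total; 3 counts of it). Spry1 itself had 26 and 17 counts against 45 and 41, with a log2 fold change of -0.82 (SE 0.28, edgeR adjusted p 0.0212). This call did not hold in DESeq2 (value and adjusted p of -0.828, 0.249) or when LPS replicate 2 (-0.612, 0.183), NC replicate 1 (-0.795, 0.0950) or NC replicate 2 (-0.834, 0.0654) was left out. Defining testis genes were present throughout: the protamine gene Prm2 lay between 6410 and 10900 CPM and the Leydig cell hormone gene Insl3 between 196 and 222 CPM.

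Cells build cholesterol from acetyl-CoA by way of mevalonate, farnesyl diphosphate, squalene and lanosterol. When membranes of the endoplasmic reticulum are poor in sterol, SCAP escorts SREBP precursors to the Golgi, where proteases release the active factors that switch on genes of synthesis and uptake; INSIG proteins retain SCAP when sterol is plentiful. In the testis, Leydig cells turn cholesterol into testosterone, Sertoli cells digest the remnants of germ cells, and germ cells express several enzymes of the route themselves.

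SREBP factors bind sterol regulatory elements, often beside NF-Y, which binds CCAAT. The promoter stretches that follow belong to genes that were lower (Hmgcs1, Acat2, Sc5d and Nsdhl), higher (Lipa) or not called (Mvk), and show what the marked letters look like. Those of Insig1, which was lower, and Scap, which was not called, hold no marked letter within the bases shown. The stretches were chosen after the matches had been seen, so they do not compare the classes. They end 1 to 50 bases before a RefSeq transcription start (GRCm38.p6, the assembly also called mm10), run 5′ to 3′ on the strand of the gene and hold no base of an exon in the count table. RefSeq starts can differ from those of the count table, as for Hmgcs1, Sc5d and Nsdhl. Capitals mark matches on either strand to TCACNCCAC (one form of the sterol regulatory element), to the shorter CACNCCAC (searched after the longer form had been counted) and to CCAAT.

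Hmgcs1, chr13:119690201-119690350, plus strand: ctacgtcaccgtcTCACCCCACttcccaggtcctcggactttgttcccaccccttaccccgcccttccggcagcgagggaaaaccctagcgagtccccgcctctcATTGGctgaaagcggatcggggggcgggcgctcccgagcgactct
Acat2, chr17:12960748-12960875, minus strand: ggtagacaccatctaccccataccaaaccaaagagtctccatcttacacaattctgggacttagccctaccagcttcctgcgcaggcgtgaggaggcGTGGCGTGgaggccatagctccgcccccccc
Sc5d, chr9:42264301-42264450, minus strand: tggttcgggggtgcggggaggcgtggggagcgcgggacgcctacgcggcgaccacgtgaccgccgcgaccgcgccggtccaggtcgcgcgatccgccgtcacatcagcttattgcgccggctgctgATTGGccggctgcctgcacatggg
Nsdhl, chrX:72918412-72918520, plus strand: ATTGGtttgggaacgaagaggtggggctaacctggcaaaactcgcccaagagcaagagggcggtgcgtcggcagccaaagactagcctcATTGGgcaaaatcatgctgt
Lipa, chr19:34527475-34527624, minus strand: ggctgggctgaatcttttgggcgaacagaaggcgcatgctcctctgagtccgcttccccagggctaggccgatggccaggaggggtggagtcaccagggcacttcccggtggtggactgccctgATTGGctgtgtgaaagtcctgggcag
Mvk, chr5:114444119-114444268, plus strand: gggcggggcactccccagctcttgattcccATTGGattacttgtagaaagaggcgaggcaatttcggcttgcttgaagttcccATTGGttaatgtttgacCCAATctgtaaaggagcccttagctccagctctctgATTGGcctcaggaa
Insig1, chr5:28071262-28071362, plus strand: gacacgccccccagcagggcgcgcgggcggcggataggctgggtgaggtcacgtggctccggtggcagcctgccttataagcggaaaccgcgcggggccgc
Scap, chr9:110333138-110333287, plus strand: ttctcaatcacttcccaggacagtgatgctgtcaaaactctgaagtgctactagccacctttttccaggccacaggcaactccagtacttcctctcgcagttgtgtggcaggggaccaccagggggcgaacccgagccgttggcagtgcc

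RefSeq promoters, 250 bases before to 50 after the start, were matched for 24 of the 29 genes. TCACNCCAC occurred in 1 of the 24, Hmgcs1, and in 1.5% of the 13266 tested genes that have a promoter in the table. CACNCCAC, which contains every match of the longer form, occurred in 3 of 24 members (Hmgcs1, Acat2 and Insig1) and in 7.6% of tested genes. By class this was 3 of 7 lower genes, 0 of 16 that were not called and 0 of 1 higher. The lower genes Fdps, Fdft1 and Sqle had no promoter to search. Because this form was searched after the longer one had been counted, the difference between the classes was not tested. CCAAT occurred in 21 of 24 members and 42.0% of tested genes; it was in 5 of 7 lower members and 15 of 16 that were not called. These are matches of letters, and no factor binding was measured.

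Of the 29 genes, 10 fell, 2 rose and 17 were not called (edgeR quasi-likelihood F test, Benjamini-Hochberg over all genes, threshold 0.05). Among all 20855 genes tested, 16.3% fell, 15.2% rose and 31.5% were called in either direction (48.3% of the calls higher, and 62.0% under scaling by library size alone), beside 34.5% and 6.9% of the members. The median log2 fold change was -0.13 over members and 0.00 over all genes tested. Each fall was small, to between 0.678 and 0.895 of the NC level. The 10 were 8 enzymes of synthesis, the feedback regulator Insig1 and the lipase gene Lipe, and the 2 that rose, Lipa and Npc1, encode lysosomal proteins. In whole testis, fewer cells of a type and less RNA per cell cannot be told apart. DESeq2 called 6 members lower and 0 higher (8.85% and 6.97% of all genes). At an unadjusted DESeq2 p under 0.05, 10 members were lower and 1 higher, beside 5389 of all 20855 genes in either direction. Leaving out NC replicate 1, edgeR called 6 lower and 1 higher, and leaving out LPS replicate 2 it called 8 lower and 1 higher.

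**Figure D1:**
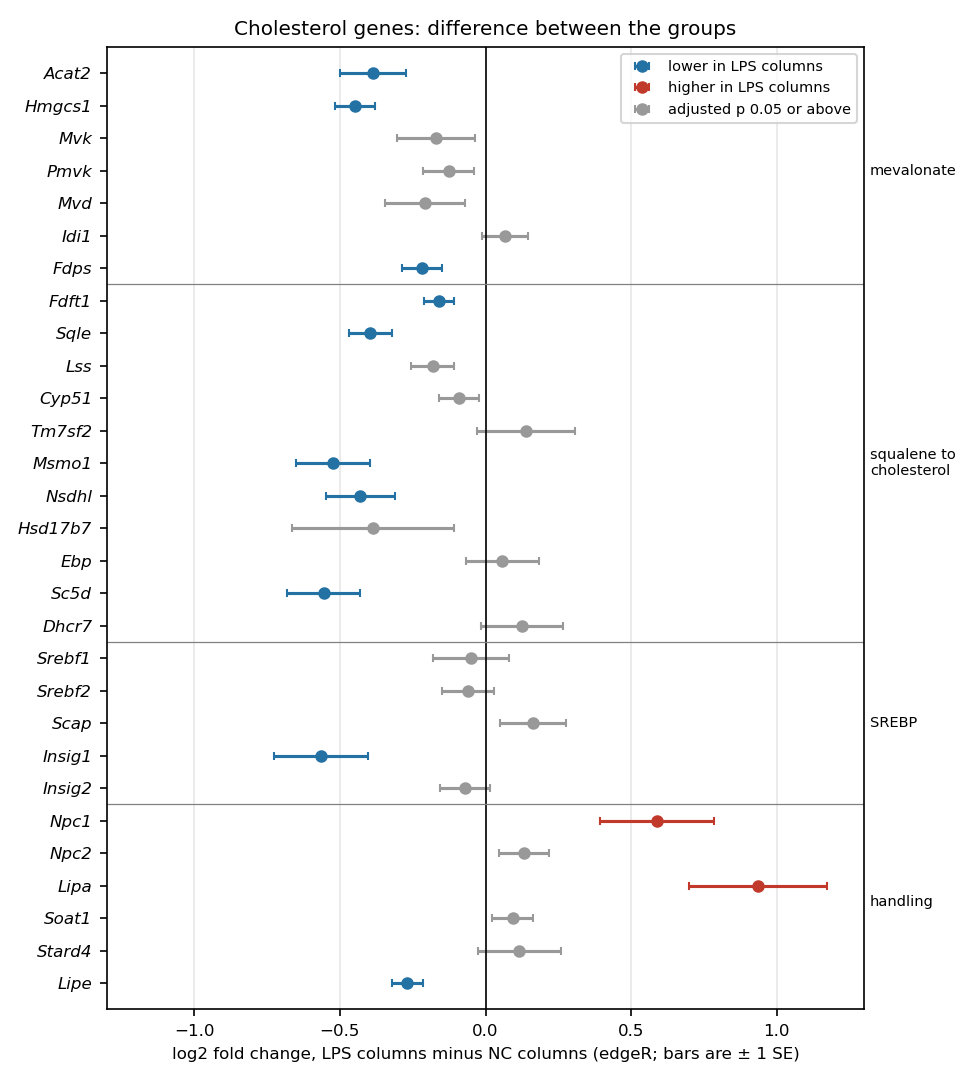
Log2 fold change (horizontal axis, LPS minus NC columns) of the 29 cholesterol genes by role, with bars of 1 SE either side; blue is called lower, red higher and grey not called. The 10 blue points lie between -0.57 and -0.16, and the red points of Npc1 and Lipa lie at 0.59 and 0.94.

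In the mevalonate part of synthesis 3 of 7 genes fell and 0 rose, with a median log2 fold change of -0.21. Hmgcs1, the cytosolic HMG-CoA synthase, measured 45.9 and 53.8 CPM against 68.2 and 67.7 CPM. Both LPS libraries lay under both NC libraries. Its log2 fold change was -0.45 (SE 0.07, edgeR adjusted p 3.17e-06), and all 10 alternatives called it, from -0.563 to -0.335. Acat2, the cytosolic thiolase that joins acetyl-CoA units, measured 9.42 and 9.06 CPM against 12.2 and 12.0 CPM. The groups were apart, at 0.764 of the NC level (log2 fold change -0.39, SE 0.11, adjusted p 0.00856). DESeq2 (-0.388, 0.135) and the fit lacking LPS replicate 2 (-0.358, 0.0529) did not call it, each pair being log2 fold change and adjusted p.

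Fdps, which makes farnesyl diphosphate, the branch point toward sterols and prenylated proteins, measured 48.7 and 52.7 CPM against 56.6 and 61.4 CPM. This was a smaller fall with the groups apart (log2 fold change -0.22, SE 0.07, adjusted p 0.0119). In the same notation, it was not called by DESeq2 (-0.219, 0.0943), under scaling by library size alone (-0.156, 0.0737), or lacking LPS replicate 1 (-0.160, 0.145) or NC replicate 2 (-0.159, 0.180). Of its exon bases, 26.7% also belong to Gm43738 on the same strand, which was lower as well (41.1 ± 2.27 CPM against 50.3 ± 3.25 CPM, SD, n = 2 each), so its counts are uncertain.

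The other 4 mevalonate genes were not called. Mvk, mevalonate kinase, measured 6.69 and 7.04 CPM against 7.85 and 7.59 CPM, and Pmvk, phosphomevalonate kinase, had 20.2 ± 0.319 CPM against 22.0 ± 0.706 CPM (SD, n = 2 each). Both had their LPS libraries just under their NC libraries. Mvd, the decarboxylase of mevalonate diphosphate, measured 7.04 and 7.44 CPM against 7.40 and 9.34 CPM, with overlapping groups. Idi1, the isopentenyl diphosphate isomerase, had the one positive value of the group, 0.07 (SE 0.08, adjusted p 0.559).

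From squalene to cholesterol 5 of 11 genes fell and 0 rose, with a median log2 fold change of -0.18. Sqle, the squalene epoxidase and an oxygen-dependent control point of the route, measured 32.4 and 34.3 CPM against 43.5 and 44.1 CPM. Libraries within a group lay close together and the groups were apart (log2 fold change -0.40, SE 0.07, adjusted p 5.05e-05). All 10 alternatives called it, from -0.435 to -0.332.

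Removal of methyl groups from the sterol ring uses Msmo1, a methyl oxidase, Nsdhl, a decarboxylating dehydrogenase, and Hsd17b7, a keto reductase. Msmo1 measured 8.66 and 8.05 CPM against 10.5 and 13.6 CPM, with NC replicate 2 the highest (log2 fold change -0.52, SE 0.13, adjusted p 0.00155). Lacking that library it was not called (-0.323, 0.107). Nsdhl measured 9.32 and 8.05 CPM against 12.1 and 11.3 CPM, again with the groups apart (log2 fold change -0.43, SE 0.12, adjusted p 0.00504). It was not called by DESeq2 (-0.432, 0.101) or lacking LPS replicate 2 (-0.330, 0.0812) or NC replicate 1 (-0.374, 0.0529). Hsd17b7 rested on 26 and 22 counts against 37 and 34; its log2 fold change of -0.39 had an SE of 0.28 (adjusted p 0.315), so a change like that of its partners was not detectable at this depth.

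Sc5d, the lathosterol oxidase late in the route, measured 7.65 and 7.66 CPM against 12.3 and 10.1 CPM. The LPS libraries were nearly equal and the NC libraries differed more. Its log2 fold change of -0.56 (SE 0.13, adjusted p 0.000728) was the lowest among the 18 enzymes, and lacking NC replicate 1 it was not called (-0.397, 0.0504). Other late enzymes were not called: Dhcr7, a final reductase, had a log2 fold change of 0.13 (SE 0.14), Ebp, a sterol isomerase, 0.06 (SE 0.13), and Tm7sf2, a sterol reductase, 0.14 (SE 0.17). The groups overlapped for Ebp and Tm7sf2. Of the exon bases of Tm7sf2, 15.3% also belong to Vps51 on the same strand, which was not called (log2 fold change 0.007).

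Fdft1, squalene synthase, which commits farnesyl diphosphate to sterols, had the highest level per length of the members, 98.5 CPM per kilobase of exon in the NC columns, ahead of Lipe with 40.4. It measured 253 and 251 CPM against 279 and 285 CPM, a narrow separation (log2 fold change -0.16, SE 0.05, adjusted p 0.0164). It was not called under scaling by library size alone (-0.0960, 0.128) or lacking LPS replicate 2 (-0.153, 0.0594), NC replicate 1 (-0.168, 0.0524) or NC replicate 2 (-0.143, 0.110). Of its exon bases, 26.8% lie opposite Ctsb, the cathepsin B gene, which was higher (50.2 ± 1.74 CPM against 43.2 ± 0.474 CPM, SD, n = 2 each). The strand setting of the counting is unknown, so these counts cannot be assigned with certainty.

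Lss, which closes the ring to lanosterol, measured 33.9 and 37.6 CPM against 40.3 and 40.6 CPM and stood just outside the threshold (log2 fold change -0.18, adjusted p 0.0586). It was called lacking LPS replicate 2 (-0.254, 0.0313) and with the replicate number as a block (-0.182, 0.0430). Cyp51, the lanosterol demethylase that germ cells express strongly, measured 43.9 and 44.8 CPM against 47.7 and 46.9 CPM and was not called (log2 fold change -0.09, adjusted p 0.327). Summed over the 18 enzymes, expression was 579 to 593 CPM in the LPS columns and 670 to 679 CPM in the NC columns, and Fdft1 had the largest share of the sum.

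**Figure D2:**
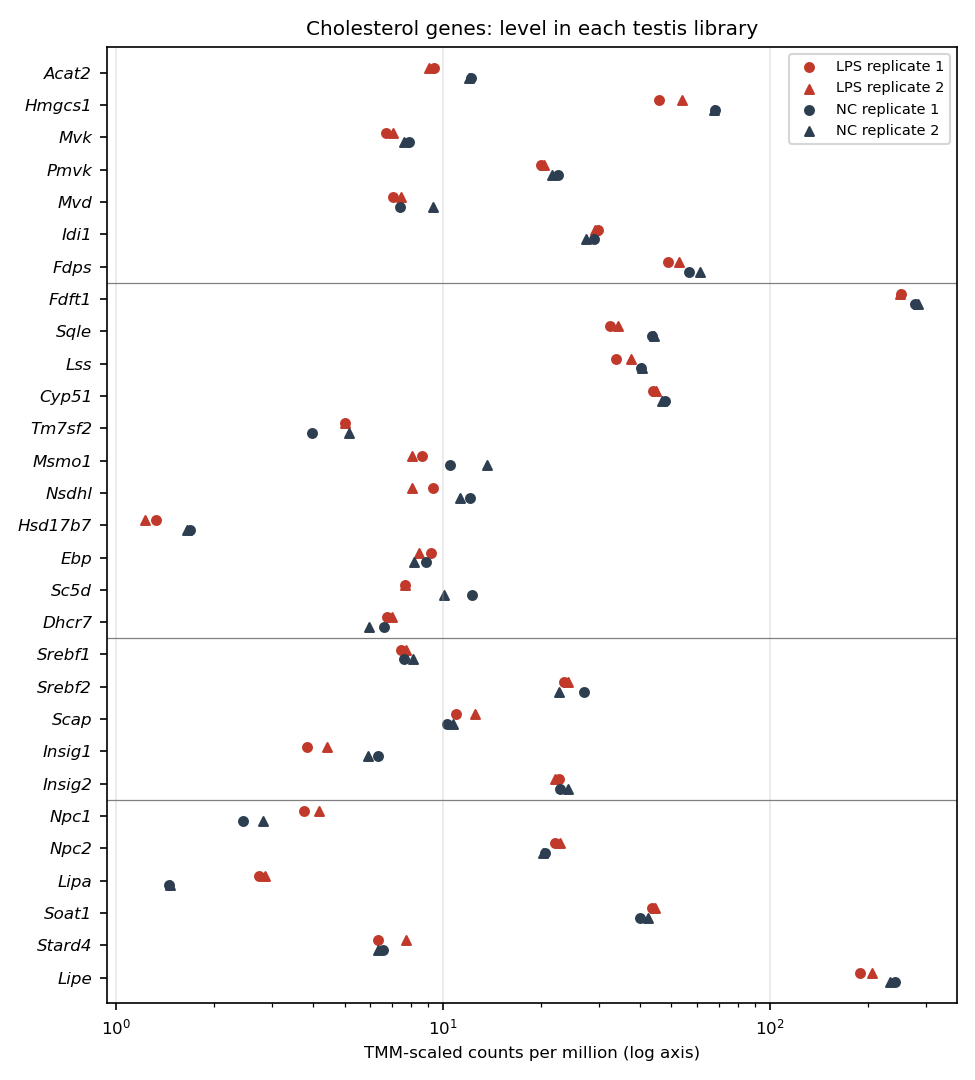
TMM-scaled CPM (horizontal axis, logarithmic) of each cholesterol gene in the 4 libraries; LPS is red, NC dark blue, circles are replicate 1 and triangles replicate 2. Hmgcs1, Sqle, Sc5d and Insig1 have both red symbols left of both dark ones, Lipa and Npc1 have them to the right, and those of Srebf1, Srebf2 and Ebp are mixed.

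Of the 5 genes of SREBP regulation 1 fell, 0 rose and 4 were not called. Insig1, a retention factor for SCAP that is itself an SREBP target, measured 3.85 and 4.42 CPM against 6.31 and 5.89 CPM. Both LPS libraries lay under both NC libraries (log2 fold change -0.57, SE 0.16, adjusted p 0.00617). It was not called by DESeq2 (-0.564, 0.129) or lacking LPS replicate 1 (-0.465, 0.0656) or NC replicate 1 (-0.507, 0.0511). Its paralogue Insig2 had the higher level per length, 6.77 beside 1.97 CPM per kilobase in the NC columns. Insig2 measured 22.7 and 22.0 CPM against 22.9 and 24.1 CPM and was not called (log2 fold change -0.07, adjusted p 0.576); the difference between the paralogues was not tested.

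Srebf2, which encodes the SREBP most tied to cholesterol genes, measured 23.5 and 24.2 CPM against 27.0 and 22.7 CPM, and Srebf1, whose products favour fatty acid genes, measured 7.45 and 7.72 CPM against 7.62 and 8.08 CPM. Neither was called and both had overlapping groups; their log2 fold changes of -0.06 and -0.05 changed sign under scaling by library size alone. Scap, the escort, had 11.8 ± 1.05 CPM against 10.5 ± 0.286 CPM (SD, n = 2 each) and was not called (log2 fold change 0.16, adjusted p 0.296). Of the exon bases of Scap, 13.2% lie opposite 5830462I19Rik, which was not called (log2 fold change 0.205). SREBP activity depends on cleavage of the protein, which transcript counts do not measure.

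Of 6 genes of intracellular handling 2 rose, 1 fell and 3 were not called. Lipa encodes lysosomal acid lipase, which frees cholesterol from the esters of ingested lipoproteins and cells. It had 54 and 51 counts against 32 and 30, or 2.74 and 2.85 CPM against 1.45 and 1.46 CPM. The groups were well apart for their spread, at 1.92 times the NC level (log2 fold change 0.94, SE 0.24, adjusted p 0.00238). DESeq2 was the one alternative of 10 that did not call it (0.939, 0.0891).

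Npc1, the lysosomal membrane protein that exports freed cholesterol, had 74 and 75 counts against 54 and 58, or 3.75 and 4.19 CPM against 2.45 and 2.82 CPM. Both LPS libraries lay above both NC libraries (log2 fold change 0.59, SE 0.20, adjusted p 0.0193). It was not called by DESeq2 (0.591, 0.224) or lacking LPS replicate 2 (0.512, 0.108) or NC replicate 1 (0.495, 0.132). Its soluble partner Npc2, which passes cholesterol to NPC1, measured 22.1 and 22.8 CPM against 20.6 and 20.3 CPM and was not called (log2 fold change 0.13, adjusted p 0.266).

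Lipe encodes hormone-sensitive lipase, which releases cholesterol from stored esters in steroid-making cells and has a testis form. It measured 189 and 205 CPM against 242 and 233 CPM, with the groups apart (log2 fold change -0.27, SE 0.05, adjusted p 0.000200). All 10 alternatives called it, from -0.325 to -0.205. Of its exon bases, 15.6% are shared with 4732471J01Rik, which was not called (41.6 ± 5.46 CPM against 45.2 ± 0.707 CPM, SD, n = 2 each). Soat1, which makes the esters, measured 43.5 and 44.5 CPM against 40.2 and 42.3 CPM, and Stard4, a sterol carrier, 6.33 and 7.72 CPM against 6.58 and 6.33 CPM. Neither was called.

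Of the 29 genes, 20 share no exon base with another gene of the table, and of these 7 fell (Hmgcs1, Acat2, Sqle, Msmo1, Nsdhl, Sc5d and Insig1), 1 rose (Lipa) and 12 were not called. The groups did not overlap in 16 members toward lower and 7 toward higher levels, beside 32.0% and 32.1% of all tested genes, or 64.1% in either direction.

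**Figure D3:**
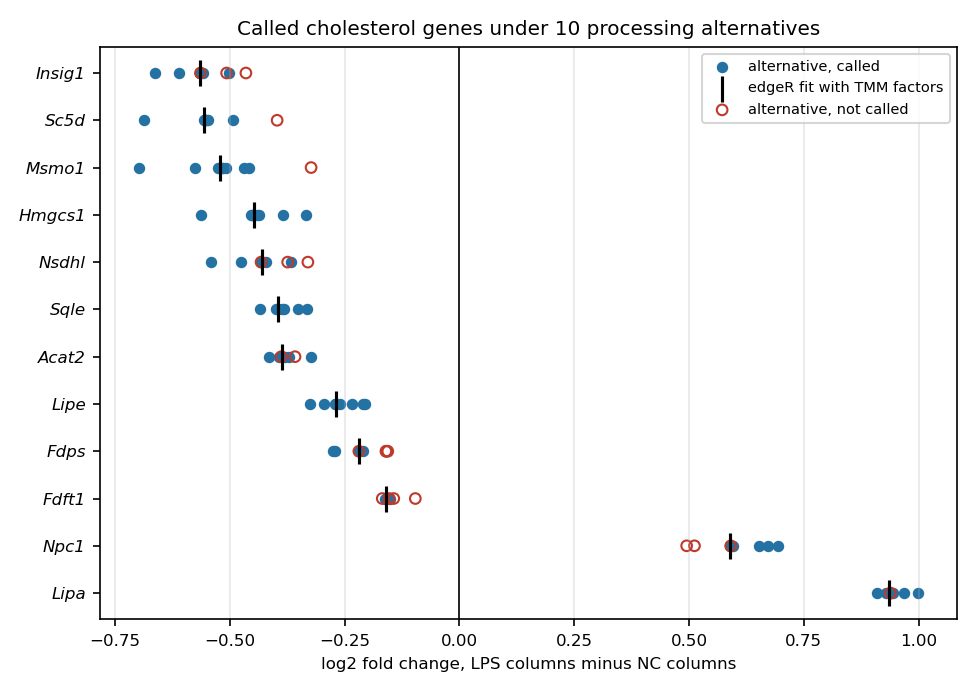
Log2 fold change (horizontal axis, LPS minus NC columns) of the 12 called cholesterol genes in the edgeR fit with TMM factors (black bars) and in 10 alternatives (filled blue where called, open red where not). The points of each gene lie on 1 side of 0, and Hmgcs1, Sqle and Lipe have filled points throughout.

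The rest of the pathway was read from 8 lists. Among other enzymes of sterol synthesis 2 of 7 tested genes rose and 1 fell (median log2 fold change 0.17). Among genes of SREBP processing and sterol-sensor turnover 4 of 9 rose and 0 fell (median 0.19). The 4 became 0 in DESeq2 and lacking LPS replicate 2, and 1 lacking either NC replicate. None of the called genes in these 2 lists reached 0.5 on the log2 scale.

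Of 8 tested genes of lipoprotein uptake 3 fell, 0 rose and 5 were not called. Scarb1, the receptor for cholesterol esters of high-density lipoprotein, measured 26.6 and 28.5 CPM against 64.9 and 62.7 CPM, or 0.432 of the NC level (log2 fold change -1.21, SE 0.07). Cd36, a scavenger receptor, had 3.41 ± 1.67 CPM against 10.1 ± 0.0658 CPM (SD, n = 2 each; log2 fold change -1.58, and -2.171 lacking LPS replicate 2). Lrp8, a receptor of the same family as the lipoprotein receptors, measured 38.8 and 38.8 CPM against 64.0 and 61.2 CPM (log2 fold change -0.69). All 3 falls had a larger size than that of any member that fell, and all 10 alternatives called each.

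Of 6 tested genes of efflux and LXR response 1 rose, 2 fell and 3 were not called. The 2 became 1 under library size alone, in DESeq2 and lacking LPS replicate 2 or NC replicate 1, and the 1 became 2 under library size alone and lacking LPS replicate 2. Abca1, which exports cholesterol to apolipoproteins, measured 44.1 and 52.9 CPM against 15.6 and 16.6 CPM, or 3.01 times the NC level (log2 fold change 1.59, SE 0.09). Apoe, a lipoprotein component, went the other way at 103 and 108 CPM against 215 and 229 CPM (log2 fold change -1.08, SE 0.06). Of 4 tested oxysterol and bile acid enzymes 1 fell, the cholesterol hydroxylase gene Cyp46a1 (4.63 ± 0.248 CPM against 10.2 ± 0.0625 CPM, SD, n = 2 each).

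Of 12 genes of intracellular sterol transport 3 fell, 1 rose and 8 were not called. The 1 became 3 under library size alone and 2 in limma-voom, with no filter, with the replicate block and lacking LPS replicate 1 or NC replicate 1. Star, which brings cholesterol into mitochondria for steroid synthesis, measured 48.1 and 62.9 CPM against 127 and 126 CPM (log2 fold change -1.19, SE 0.07). Of 11 tested genes of cholesterol esters and lipid droplets 1 rose, Cidea, a droplet protein (log2 fold change 0.50, SE 0.18, adjusted p 0.0270), and 0 fell. Cidea was not called by DESeq2 (0.504, 0.239) or lacking LPS replicate 2 (0.248, 0.427) or NC replicate 1 (0.382, 0.174).

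Of 14 genes of fatty acid synthesis, the branch tied more closely to SREBP-1, 9 fell, 2 rose and 3 were not called, with a median log2 fold change of -0.28. The desaturase gene Fads2 measured 56.1 and 59.4 CPM against 121 and 110 CPM, or 0.501 of the NC level. The other desaturase genes named by the rule, Fads1 and Scd1, stood at 0.518 and 0.520 of it, and the elongase gene Elovl6 at 0.636. The 2 that rose were the fatty acid synthase gene Fasn (log2 fold change 0.39) and Mlxipl (0.59), and all 10 alternatives called each. The 9 that fell became 6 in DESeq2 and 7 under library size alone and with no filter. Their number was also below 9 with each library left out in turn. Whether this list differed from the enzymes of cholesterol synthesis was not tested.

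**Figure D4:**
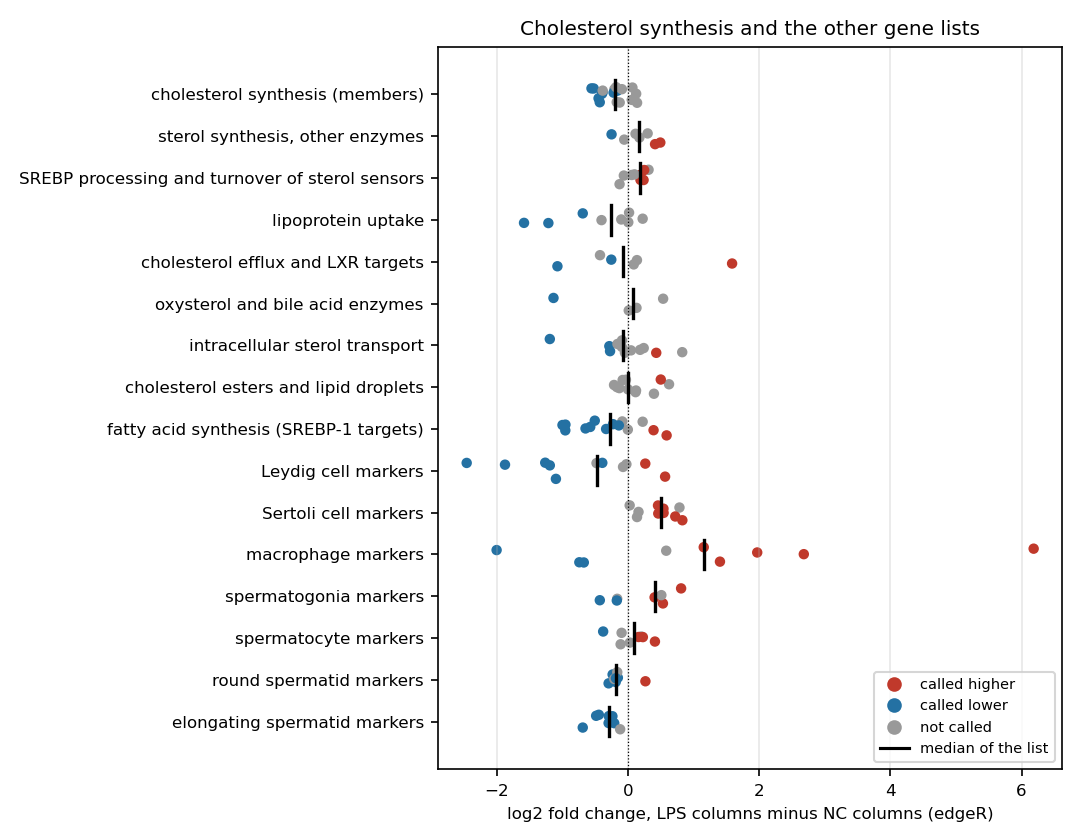
Log2 fold change (horizontal axis, LPS minus NC columns) of each tested gene among the 18 cholesterol synthesis enzymes and in the 15 other lists, with black bars at the medians; red is called higher, blue lower and grey not called. The enzymes lie near 0 with a median of -0.19, while the Leydig cell marker Cyp17a1 lies at -2.46 and the macrophage marker Marco at 6.18.

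Markers of testicular cell types moved too. Among 11 Leydig cell markers 6 fell and 2 rose. Summed levels were 527 to 607 CPM in the LPS columns and 937 to 982 CPM in the NC columns. A large part of that difference was the androgen enzyme gene Cyp17a1 (log2 fold change -2.46), at 41.1 and 49.4 CPM against 247 and 249 CPM. Insl3 was not called (-0.075), and the 2 that rose were Nr5a1 (0.566) and Cyp11a1 (0.264). The 2 Leydig cell markers that rose became 1 in DESeq2 and lacking LPS replicate 2. Elongating spermatid markers fell in 7 of 8 genes and rose in 0, with 25200 CPM beside 32900 to 33600 (Prm2 -0.69). Round spermatid markers fell in 5 of 8 and rose in 1, with 1310 to 1350 CPM beside 1370 to 1400 (Acrv1 -0.295). The 5 became 2 in DESeq2 and under library size alone, and 3 lacking LPS replicate 2 or either NC replicate. Sertoli cell markers rose in 6 of 10 and fell in 0, with 1180 to 1200 CPM beside 849 to 854 (Gata1 0.83). Macrophage markers rose in 5 of 9 and fell in 3, with 113 to 134 CPM beside 53.9 to 59.8 (Marco 6.18). The 3 that fell were Csf1r (-0.741), Mrc1 (-0.673) and Cd163 (-2.002). Cd163 rests on 4 and 2 counts against 17 and 11 and was not called in DESeq2. A large part of the difference between the sums was Marco, at 30.5 and 38.9 CPM against 0.227 and 0.73 CPM. Marco rests on 5 and 15 counts in the NC columns; its value was 5.56 lacking NC replicate 1 and 7.214 lacking NC replicate 2. Spermatogonia markers rose in 3 of 7 tested and fell in 2, with 672 to 674 CPM beside 715 to 726 (Stra8 0.81). Most of that sum was Ddx4, 1 of the 2 that fell, at 592 and 585 CPM against 659 and 664 CPM. The sum therefore follows Ddx4, while the median log2 fold change of the list was 0.41. The 3 became 1 in DESeq2 and lacking NC replicate 1, and the 2 became 1 in DESeq2, under library size alone and lacking LPS replicate 2 or NC replicate 1. Spermatocyte markers rose in 3 of 8 and fell in 1, with 2780 to 2930 CPM beside 2920 to 3000 (Spo11 0.41). The 1 was Sycp1, named after its values were seen, at 231 and 151 CPM against 247 and 250 CPM; it was not called in DESeq2 or lacking LPS replicate 2 (log2 fold change -0.106), and 2 were called in limma-voom and lacking LPS replicate 1. No marker was at 0 in all libraries. The part of these shifts in the values of the cholesterol genes was not tested.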

How the data were processed

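RNA sequencing of testis gave 4 libraries in 2 groups of 2. The authors deposited one table of raw counts whose header has the leading columns that featureCounts writes. The submitters' processing notes list Subread 1.5.1 and featureCounts, STAR 2.5.3a, Trimmomatic 0.36, DESeq, edgeR 3.12.1 and build mm10; for their roles, the annotation release and the strand setting nothing is stated in the material used.

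Genes were filtered with filterByExpr, scaled by TMM and compared with edgeR 4.0.16 in R 4.3.3 (quasi-likelihood F test, Benjamini-Hochberg adjustment, called under 0.05). SEs follow from the F statistic, and CPM uses TMM-scaled library totals. Alternatives were DESeq2 1.42.0 on the same genes, limma-voom (limma 3.58.1), library size or RLE scaling, no filter, a replicate block and each library left out. Replicates differed beyond sampling noise (chi-square per degree of freedom 2.31 and 2.20). Named are all 29 members, Spry1, in each of 8 pathway lists at most the 4 called genes with the largest change of at least 0.5 on the log2 scale, and in each of 7 marker lists the called gene with the largest change. Insl3, Nr5a1, Cyp11a1, Csf1r, Mrc1, Cd163, Sycp1, Ddx4, Fasn, Mlxipl, Ctsb, Gm43738, 4732471J01Rik, Vps51 and 5830462I19Rik fall outside that rule. They were chosen after their values were seen. Members and lists were chosen with earlier results of these data known. Floors cover counting error only.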

Additional observations from a re-analysis of the deposited data

How the results depend on the processing

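The 12 called cholesterol genes kept their direction in all 10 alternatives, and Hmgcs1, Sqle and Lipe were called in each. DESeq2 called 1454 genes higher and 1845 lower (edgeR 3169 and 3394), 0 and 6 of the members (edgeR 2 and 10), and 6 pathway-list genes higher (edgeR 11). Under scaling by library size alone, 17 pathway-list genes were called higher, and 62.0% of all calls were higher, beside 48.3%. Leaving out each library in turn gave 6 to 8 members lower, 1 to 2 higher, and 7 to 11 pathway-list genes higher. Members that were not called changed sign: over these left-out libraries Tm7sf2 ran from -0.032 to 0.332, Ebp from -0.008 to 0.128, Srebf2 from -0.178 to 0.079 and Stard4 from -0.026 to 0.258, and under library size alone Srebf1 was 0.013 and Srebf2 0.002. With the replicate number as a block, 3376 genes were called higher and 3593 lower, and 2 and 11 members, Lss being added. Deviations of libraries with the same number had a correlation of 0.018 across genes. That value includes the counting error of every gene, so it cannot show whether such libraries share an animal or a batch. The cause of these differences was not tested; a left-out library also leaves fewer samples, with the lone library assumed to vary like the others. Hsd17b7, Lipa and Npc1 had the fewest counts of the members, 22 to 75 per library, and the largest SEs.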
